A study of Mus musculus with 4 samples.

Results

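The p53 pathway was followed in B16F10 mouse melanoma cells through 9 genes: Trp53, which encodes p53 itself, and the p53 target genes Mdm2, Ccng1, Trp53inp1, Sesn1, Zmat3, Plk2, Phlda3 and Eda2r. They were picked by gene symbol, with earlier results of these data known. All 9 were found among the 24527 genes of the deposited read counts. RNA-seq was performed on 4 libraries, 1 per condition, all labelled as wild type. The 2D monoculture held B16F10 cells grown alone, the 2D co-culture B16F10 cells grown flat with NIH/3T3 mouse fibroblasts, and the spheroid B16F10 cells grown with NIH/3T3 cells in hanging drops, the latter described in the methods as red fluorescent. The B16F10 line was a commercial one with green fluorescent protein in its cytoplasm, and living fluorescent cells were sorted from the cultures. Tumors were raised under the skin of female C57BL/6 mice aged 1 year. The methods describe sorted tumor cells, whereas the label of the tumor library names a snap-frozen tumor. The methods give RPMI for the B16F10 line and Dulbecco's modified Eagle medium for spheroids, so medium and growth form cannot be told apart. With 1 library per condition, no difference has a replicate check, no p-value is given, and all intervals are 95% intervals that cover counting error only.

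The protein p53 is a transcription factor that is held at a low level by Mdm2, a ubiquitin ligase that marks it for degradation. DNA damage and other stresses release p53 from Mdm2, mostly at the level of the protein, after which it binds paired decamers of DNA and switches on genes that halt the cell cycle, repair DNA, limit growth signals or kill the cell. Mdm2 is itself such a gene, so the pathway holds a feedback loop, and the mRNA of p53 targets is commonly read as a sign of p53 activity while the mRNA of Trp53 is not.

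To show where p53 may bind close to these genes, the 250 bases before each annotated start were searched for the p53 response element decamer consensus, a palindrome that reads alike on both strands. The RefSeq promoter table (build GRCm38.p6, the same assembly as mm10) held 8 windows for 7 of the members, and Trp53inp1 and Zmat3 had no window there. Of the 8 windows, 4 held 1 decamer each, in Trp53, Mdm2, Ccng1 and the downstream start of Sesn1, and among all 32851 windows, 7.13% held at least 1. The windows of Phlda3, Plk2, Eda2r and the upstream start of Sesn1 held none, which says only that these letters are not in this stretch. Where a window held 1 decamer, that is only a part of the paired site described above, and binding was not tested. The 4 windows with a match are given 5′ to 3′ in the direction of the gene, with the decamer in capitals, and lie at chr11:69580109-69580358 (Trp53, + strand), chr10:117710759-117711008 (Mdm2, - strand), chr11:40755287-40755536 (Ccng1, - strand) and chr10:41887189-41887438 (Sesn1, + strand).
Trp53: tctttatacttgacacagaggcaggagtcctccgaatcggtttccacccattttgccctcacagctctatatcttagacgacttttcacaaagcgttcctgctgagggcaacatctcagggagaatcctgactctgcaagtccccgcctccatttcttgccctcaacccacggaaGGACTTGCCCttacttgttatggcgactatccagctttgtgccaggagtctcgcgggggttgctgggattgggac
Mdm2: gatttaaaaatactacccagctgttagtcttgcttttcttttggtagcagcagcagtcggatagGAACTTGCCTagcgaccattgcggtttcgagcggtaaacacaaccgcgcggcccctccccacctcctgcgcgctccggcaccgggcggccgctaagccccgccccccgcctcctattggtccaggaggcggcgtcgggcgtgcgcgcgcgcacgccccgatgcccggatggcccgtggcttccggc
Ccng1: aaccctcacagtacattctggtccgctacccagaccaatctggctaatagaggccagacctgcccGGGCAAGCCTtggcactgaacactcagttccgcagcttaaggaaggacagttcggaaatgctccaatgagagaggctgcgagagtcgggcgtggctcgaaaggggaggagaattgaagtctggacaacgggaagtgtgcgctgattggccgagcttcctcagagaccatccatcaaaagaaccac
Sesn1: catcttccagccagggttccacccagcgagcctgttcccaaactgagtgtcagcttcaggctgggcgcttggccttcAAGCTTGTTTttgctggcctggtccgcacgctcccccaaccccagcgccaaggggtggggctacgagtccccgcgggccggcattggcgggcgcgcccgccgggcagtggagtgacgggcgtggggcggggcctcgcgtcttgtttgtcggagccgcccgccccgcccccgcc
The decamer began 75 bases before the start in Trp53, 186 in Mdm2, 185 in Ccng1 and 173 in Sesn1. These are the starts of the promoter table. In Trp53 and Ccng1, and for the downstream start of Sesn1, they lie inside the gene positions given below.

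The libraries held between 118896900 and 150028663 reads on genes. Levels are given as CPM, the count divided by the library total in units of 1e+06 reads, after scaling with TMM factors, which correct for differences in library composition. As background served the 12728 genes whose mean over the 4 libraries reached 1 CPM, and all 9 members were among them. The members had between 570 and 68993 reads per library, so that their counting intervals reached between 0.747% and 8.30% to either side. Melanocyte markers were present in every library, with the 8 genes of that list summing to between 11420 CPM (spheroid) and 20122 CPM (tumor). The tumor library also held genes of host tissue. The summed level of 10 myeloid genes was 1955 CPM there against 10.4 to 30.0 CPM in the cultures, that of 5 skeletal muscle genes 4599 CPM against 3.28 to 12.4 CPM, that of 6 endothelial genes 249.6 CPM against 1.24 to 4.55 CPM, and that of 3 adipocyte genes 216 CPM against 0.197 to 0.448 CPM. The summed level of 8 fibroblast genes was 2718 CPM in the tumor and 679 CPM in the 2D co-culture, against 17.6 CPM (2D monoculture) and 36.5 CPM (spheroid). Lymphoid genes (5) and keratinocyte genes (2) summed to 5.11 CPM and 0.40 CPM in the tumor and to at most 0.206 CPM in any culture. In such bulk libraries, fewer cells of a type and less RNA per cell cannot be told apart.

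The mRNA of Trp53 (chr11:69580348-69591873) was highest in both co-cultures, where most of the 8 target members were below the 2D monoculture. In the spheroid this held for 6 of the 8. The 29 other tested targets were split there, with 15 above and 14 below the 2D monoculture and a median log2 ratio of 0.02. Trp53 was at 159.6 CPM (2D monoculture), 232 (2D co-culture), 252 (spheroid) and 47.4 (tumor). The spheroid and the 2D co-culture therefore held the most Trp53 mRNA. Their log2 ratios to the 2D monoculture were 0.66 (interval 0.64 to 0.69) and 0.54 (0.52 to 0.57), both under 2-fold. For the spheroid the ratio was 0.32 with the GC and length correction described below, 0.54 with total counts and 0.78 with upper quartiles. The tumor held the least, at a log2 ratio of -1.75 (-1.79 to -1.71), or 3.36-fold lower.

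**Figure D1:**
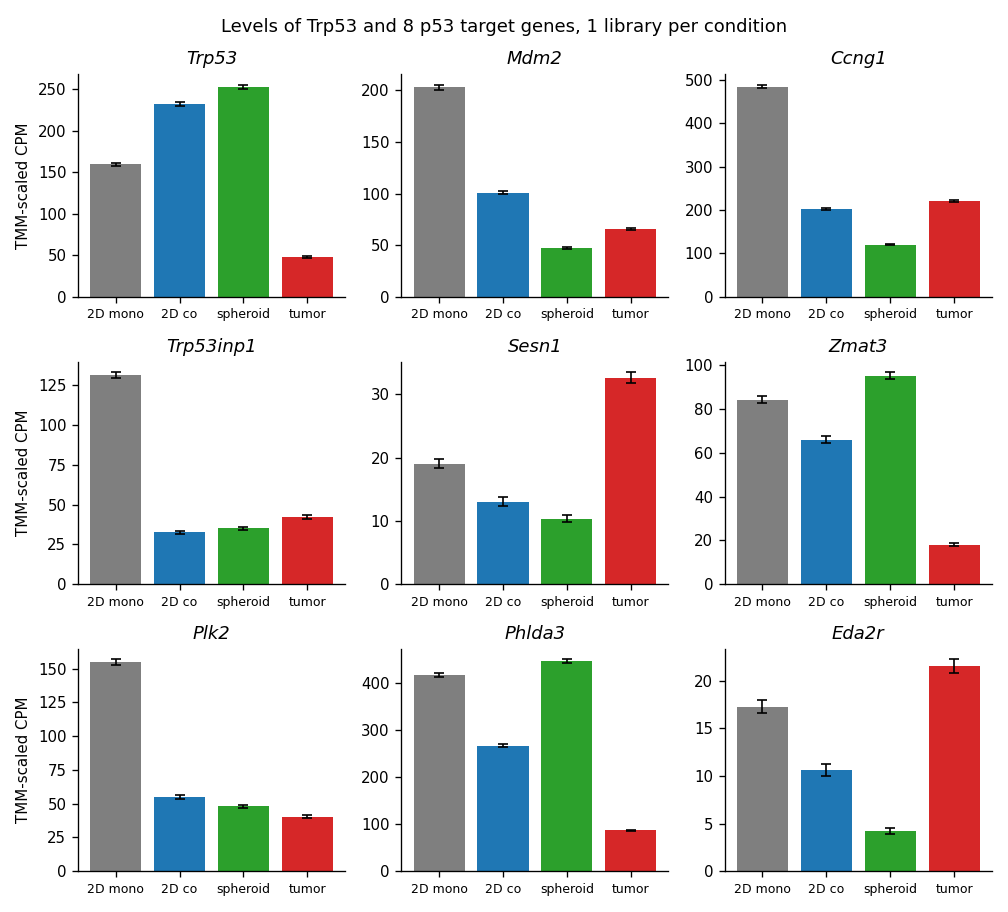
TMM-scaled CPM of Trp53 and the 8 target genes (1 panel per gene, each with its own axis from 0) in the 4 libraries, with bars for the single library of each condition and error bars for the 95% counting interval. Mdm2, Ccng1, Trp53inp1 and Plk2 were highest in the 2D monoculture, Trp53, Zmat3 and Phlda3 were highest in the spheroid and lowest in the tumor, and Sesn1 and Eda2r were highest in the tumor and lowest in the spheroid.

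Mdm2 and Ccng1, both feedback regulators of p53, were lower in every other condition than in the 2D monoculture. Mdm2 (chr10:117688875-117710758) had 203 CPM (2D monoculture), 101 (2D co-culture), 47.3 (spheroid) and 65.8 (tumor). Its log2 ratio to the 2D monoculture was -2.10 (-2.14 to -2.06) in the spheroid, 4.29-fold lower, and -1.62 (-1.66 to -1.59) in the tumor. In the 2D co-culture it was -1.01 (-1.04 to -0.97), on the 2-fold line. Ccng1 (chr11:40748552-40755309), which encodes cyclin G1, a partner of a phosphatase that acts on Mdm2, had 484 CPM (2D monoculture), 202 (2D co-culture), 120.3 (spheroid) and 221 (tumor). Like Mdm2, it was lowest in the spheroid, at a log2 ratio of -2.01 (-2.03 to -1.99). The 2D co-culture and the tumor lay close to each other in Ccng1, with log2 ratios of -1.26 (-1.29 to -1.24) and -1.13 (-1.15 to -1.11).

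Trp53inp1 and Plk2 were past 2-fold lower in all 3 comparisons with the 2D monoculture. Trp53inp1 (chr4:11156441-11174379), a nuclear protein that promotes p53 phosphorylation and autophagy, was at 131 CPM (2D monoculture), 32.5 (2D co-culture), 35.1 (spheroid) and 42.2 (tumor). The log2 ratios to the 2D monoculture were -2.02 (-2.07 to -1.97), -1.91 (-1.95 to -1.86) and -1.64 (-1.68 to -1.60) in that order. Trp53inp1 was the only member that was lowest in the 2D co-culture. Plk2 (chr13:110395044-110400844), a kinase of the polo-like family, was at 155 CPM (2D monoculture), 54.7 (2D co-culture), 48.0 (spheroid) and 40.2 (tumor). Its log2 ratios were -1.50 (-1.54 to -1.46), -1.69 (-1.73 to -1.65) and -1.94 (-1.98 to -1.90).

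Zmat3 and Phlda3 were within 2-fold of the 2D monoculture in the spheroid and past 2-fold lower in the tumor. Phlda3 (chr1:135766085-135769134), whose product competes with the kinase Akt for membrane lipids and so restrains it, had 416 CPM (2D monoculture), 266 (2D co-culture), 446 (spheroid) and 86.6 (tumor). Zmat3 (chr3:32334792-32365665), an RNA-binding zinc finger protein, had 84.3 CPM (2D monoculture), 66.0 (2D co-culture), 95.2 (spheroid) and 18.0 (tumor). Spheroid and 2D monoculture differed little in both, at log2 ratios of 0.10 (0.08 to 0.11) for Phlda3 and 0.18 (0.14 to 0.21) for Zmat3. The ratio for Phlda3 turned to -0.02 with total count scaling. With the GC and length correction described below, Phlda3 turned to -0.58 and Zmat3 was past 2-fold higher, at 1.32. In the tumor both were lower than in any culture, by 4.81-fold against the 2D monoculture for Phlda3 and by 4.69-fold for Zmat3.

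Sesn1 and Eda2r were the members with the fewest reads in the 2D monoculture and the only ones above it in the tumor. Sesn1 (chr10:41810574-41908436), a sestrin that restrains the growth kinase complex mTORC1, was at 19.0 CPM (2D monoculture), 13.0 (2D co-culture), 10.3 (spheroid) and 32.6 (tumor). Its log2 ratios to the 2D monoculture were -0.55 (-0.64 to -0.46), -0.88 (-0.98 to -0.79) and 0.78 (0.71 to 0.84) in that order, none past 2-fold. Eda2r (chrX:97333837-97377234), a receptor of the tumor necrosis factor receptor family for ectodysplasin A2, was at 17.2 CPM (2D monoculture), 10.6 (2D co-culture), 4.19 (spheroid) and 21.5 (tumor). It was 4.12-fold lower in the spheroid, at a log2 ratio of -2.04 (-2.18 to -1.91), and differed by 0.32 (0.24 to 0.39) between tumor and 2D monoculture. Genes of muscle, myeloid, endothelial and adipose cells were up in the tumor library with both, by the sums given above, and the part of host RNA in these values was not tested.

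**Figure D2:**
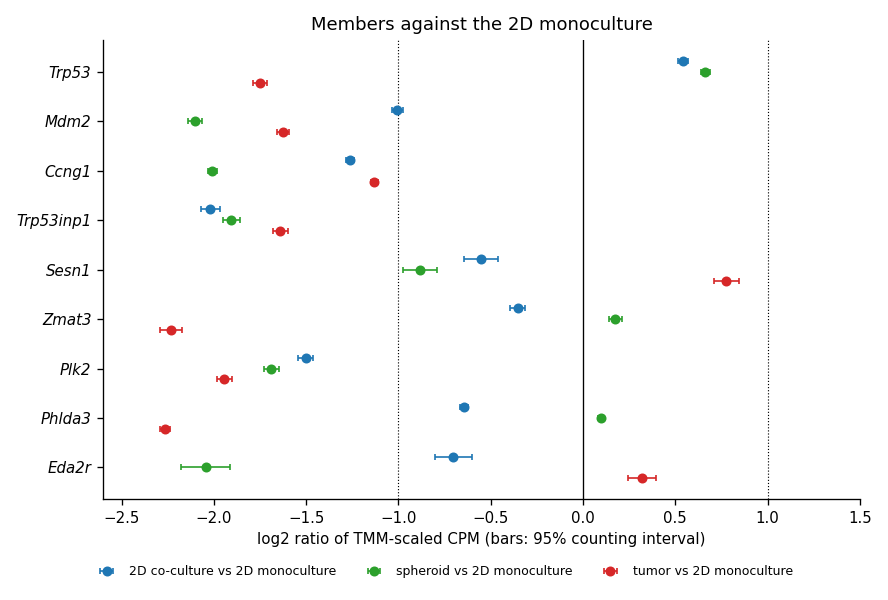
Log2 ratio of TMM-scaled CPM to the 2D monoculture for each member in the 2D co-culture, the spheroid and the tumor, with nothing added to the values. Points are single libraries, bars are 95% counting intervals, and dotted lines mark 2-fold. Mdm2, Ccng1, Trp53inp1 and Plk2 lay near or past 2-fold lower in all 3, whereas Trp53 lay above 0 in both co-cultures and at -1.75 in the tumor.

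For counts, a gene was called higher or lower when the log2 ratio of its CPM values, after 1 CPM was added to each, was past 2-fold. Between spheroid and 2D monoculture, 5 of the 9 members were lower and 0 higher (Mdm2, Ccng1, Trp53inp1, Plk2 and Eda2r), where 29.1% of all tested genes were past 2-fold, 17.9% lower and 11.2% higher. The median log2 ratio of the members was -1.67, against 0.05 over all tested genes. Since the members were chosen with earlier results of these data known, the counts and medians here and below describe the list and test nothing. Mdm2, Ccng1, Trp53inp1 and Eda2r stood at the percentiles 3.51, 4.11, 5.05 and 5.62 of all tested genes, and Trp53 at 77.1. Between 2D co-culture and 2D monoculture, 3 members were lower and 0 higher (Ccng1, Trp53inp1 and Plk2), against a background of 13.3% past 2-fold, 9.51% lower and 3.79% higher. The median of the members was -0.66 there and 0.01 over all genes, and all 8 target genes lay below 0, although Zmat3 turned from -0.35 to 0.35 when genes of like GC content and length were taken as reference. Mdm2 fell just short of the call, with 2.01-fold as measured. The 2D co-culture also held more of the fibroblast genes, by the sums given above. Their part in its member values, Trp53 included, was not tested.

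Between tumor and 2D monoculture, 7 members were lower and 0 higher, where 33.1% of tested genes were past 2-fold, 18.2% lower and 14.8% higher. The median of the members was -1.62, against -0.14 over all tested genes. Phlda3 stood at the percentile 1.31 of all genes, next to Zmat3. Since genes of host tissue were high in this library, the background was also taken over the 11586 genes with at least 1 CPM in the 2D monoculture, with TMM factors from these genes, an alternative chosen after the data were seen. It left 24.3% of genes past 2-fold, 12.9% lower and 11.4% higher, with 7 members past 2-fold (Sesn1 now higher, Ccng1 no longer called at -0.85) and a member median of -1.35. Melanocyte markers had a median log2 ratio of 0.35 in the tumor, with 6 of 8 above 0 and 1 past 2-fold lower, Sox10, at 834 CPM (2D monoculture) and 237 CPM (tumor). In the spheroid these markers had a median of -0.36, with 6 of 8 below 0 and 3 past 2-fold lower. Those were Mitf, the master regulator of melanocytes, at 416 CPM (2D monoculture) and 70.3 CPM (spheroid), Mlana at 622 and 159.8 CPM, and Tyrp1 at 6168 and 2455 CPM. They moved in the same direction as the 5 lower members, and their relation to these was not tested.

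**Figure D3:**
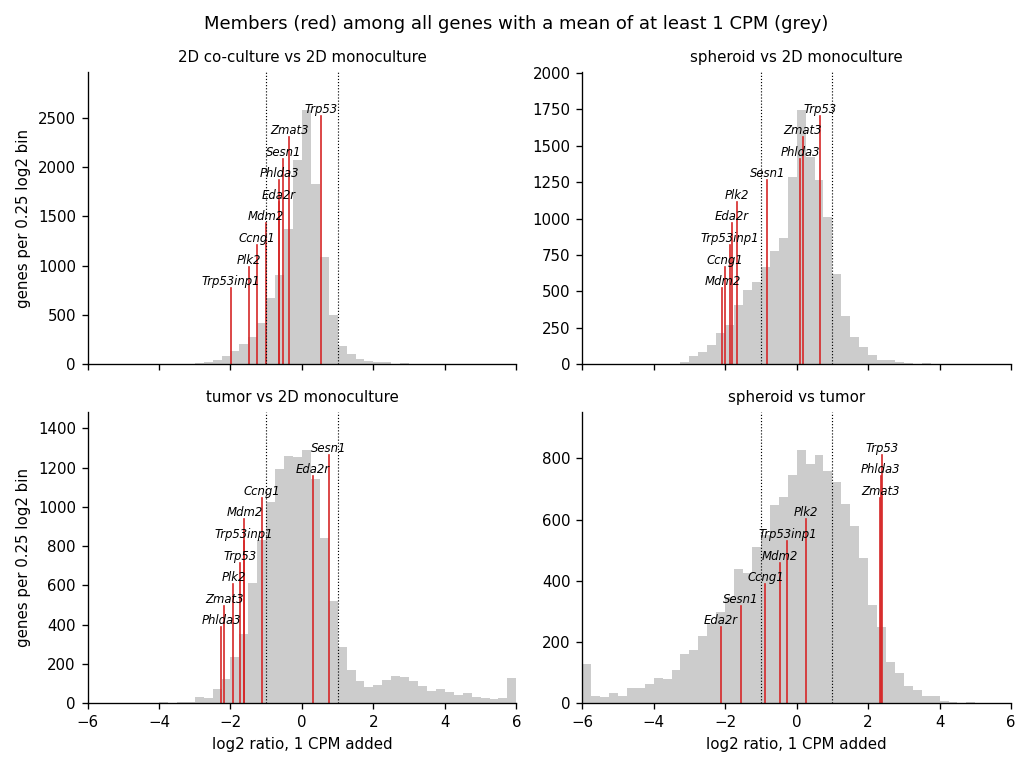
Number of genes per bin of the log2 ratio (1 CPM added) over the 12728 tested genes in grey, with each member marked by a red line whose height carries no value. Dotted lines mark 2-fold, and the outermost bins also hold the genes beyond the axis. Against the 2D monoculture, 6 of the 9 members lay below 0 in the spheroid and 7 in the tumor, with Trp53, Zmat3 and Phlda3 above 0 in the spheroid and Sesn1 and Eda2r in the tumor.

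Calls past 2-fold lower in all 3 other libraries were made for Ccng1, Trp53inp1 and Plk2, 3 of the 9 members, where 1.29% of tested genes were 2-fold lower in all 3. With Mdm2, 4 were 2-fold lower in both spheroid and tumor (2.68% of tested genes). For Ccng1 the call in the tumor was lost with total counts (-0.89), upper quartiles (-0.88) and factors of monoculture-expressed genes (-0.85). These 3 comparisons share the 2D monoculture library, so 1 high value there would set all of them. The 2D monoculture was the highest of the 4 libraries for 4 members (18.5% of tested genes), and the tumor the lowest for 4, Trp53, Zmat3, Plk2 and Phlda3 (39.6%). The members' levels followed the order 2D monoculture, 2D co-culture, spheroid in 5 cases, Mdm2, Ccng1, Sesn1, Plk2 and Eda2r, which held for 25.3% of tested genes.

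The direct comparison of both co-cultures showed smaller differences. Between spheroid and 2D co-culture, 2 of 9 members were lower and 0 higher, where 18.0% of tested genes were past 2-fold, 8.46% lower and 9.54% higher. They were Mdm2, at a log2 ratio of -1.10 (-1.14 to -1.05), and Eda2r, at -1.34 (-1.48 to -1.19). Phlda3 and Zmat3 were above 0, at 0.74 (0.72 to 0.76) and 0.53 (0.49 to 0.57). Plk2 was at -0.19, Trp53inp1 at 0.11 and Trp53 at 0.12. With the GC and length correction given below, 0 members were past 2-fold here.

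The question the study asked of these libraries was how near the spheroid comes to the tumor, and the members gave no single answer. Of the 9, 3 were higher in the spheroid (Trp53, Zmat3 and Phlda3), 2 were lower (Sesn1 and Eda2r) and 4 were within 2-fold. This split was near that of all tested genes, of which 54.4% were past 2-fold, 26.8% higher and 27.6% lower. Over the genes expressed in the 2D monoculture, 48.9% were past 2-fold, 23.1% higher and 25.8% lower, and 6 members were past 2-fold. Trp53 was 5.32-fold higher in the spheroid, Zmat3 5.30-fold and Phlda3 5.15-fold. Eda2r was 5.14-fold lower and Sesn1 3.16-fold lower. Mdm2, Ccng1, Trp53inp1 and Plk2, the 4 genes that were highest in the 2D monoculture, were within 2-fold, with log2 ratios of -0.48 (-0.52 to -0.43), -0.88 (-0.91 to -0.85), -0.27 (-0.32 to -0.21) and 0.26 (0.21 to 0.31). Total count scaling moved each of these ratios by -0.36, which put Ccng1 past 2-fold lower. Between 2D co-culture and tumor, 3 members were higher and 1 lower, against 39.7% of tested genes past 2-fold, 18.8% higher and 20.9% lower (31.9%, 13.8% and 18.1% over monoculture-expressed genes), and the member medians were 0.43 there and -0.26 between spheroid and tumor. With the GC and length correction they were 0.40 and 0.27, so that the second turned its sign.

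By likeness of profile over the 4 libraries, the members formed pairs and small groups. Likeness was the Euclidean distance between log2(CPM + 1) profiles after each gene's mean was removed, which is a description over 4 values. Zmat3 and Phlda3 were closest of all pairs, at 0.219. The profiles are without the GC and length correction described below. That correction set these genes apart in spheroid to 2D monoculture, at 1.32 for Zmat3 and -0.58 for Phlda3. Trp53 lay 0.629 from Zmat3 and 0.838 from Phlda3 and at least 2.10 from each of the others. Mdm2 and Ccng1 were 0.533 apart, Trp53inp1 and Plk2 0.585, and Sesn1 and Eda2r 0.762. Of 9587 other genes with at least 10 CPM on average, Cnot3, Kmt2b and Cnnm4 had the profiles nearest to that of Trp53, at 0.168, 0.186 and 0.196. Nearest to the median profile of the 8 targets were Trim56, Gas8 and Vps53, at 0.160, 0.166 and 0.176.

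Levels of different genes can be set side by side only per length, here as CPM per kilobase of annotated exon. In the 2D monoculture, Phlda3 was the most abundant member on that scale at 267, followed by Ccng1 at 138, Mdm2 at 39.9, Trp53 at 39.5, Plk2 at 34.5, Trp53inp1 at 20.3, Zmat3 at 7.37, Sesn1 at 4.78 and Eda2r at 2.93. In the spheroid Phlda3 still led, at 286, and the order below it changed. Trp53 at 62.4 stood above Ccng1 at 34.2, Plk2 at 10.7 above Mdm2 at 9.30, and Zmat3 at 8.33 above Trp53inp1 at 5.42. In the tumor Ccng1 at 63.0 and Phlda3 at 55.5 led, with Mdm2 at 13.0 and Trp53 at 11.7.

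The base composition of the genes moved with these ratios and is given beside them. Across 12466 tested genes with annotation, Spearman's correlation of GC content with the log2 ratio was 0.464 for spheroid to 2D monoculture, 0.20 for 2D co-culture to 2D monoculture, -0.381 for tumor to 2D monoculture and 0.525 for spheroid to tumor. Genes are not independent replicates, and these values describe the libraries. Of the 5 members lower in the spheroid, Trp53inp1, Ccng1, Eda2r, Mdm2 and Plk2 had a GC content of 38.8%, 40.8%, 40.9%, 46.2% and 48.0% in their longest transcript, below the median of tested genes of 49.7%. Trp53 and Phlda3 lay above it, at 53.3% and 62.6%, Sesn1 next to it at 49.8% and Zmat3 below it at 47.6%. After the median ratio of genes of like GC content and exon length was removed, all 5 genes were still past 2-fold lower in the spheroid, at -1.75 for Mdm2, -1.99 for Ccng1, -1.30 for Trp53inp1, -1.72 for Plk2 and -1.35 for Eda2r. The same correction moved Zmat3, which has 11.4 kilobases of exon, from 0.17 to 1.32 and Phlda3 from 0.10 to -0.58. In the tumor the 7 lower members stayed past 2-fold, between -1.24 for Trp53 and -2.05 for Trp53inp1, and Sesn1 moved past 2-fold higher, to 1.03.

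**Figure D4:**
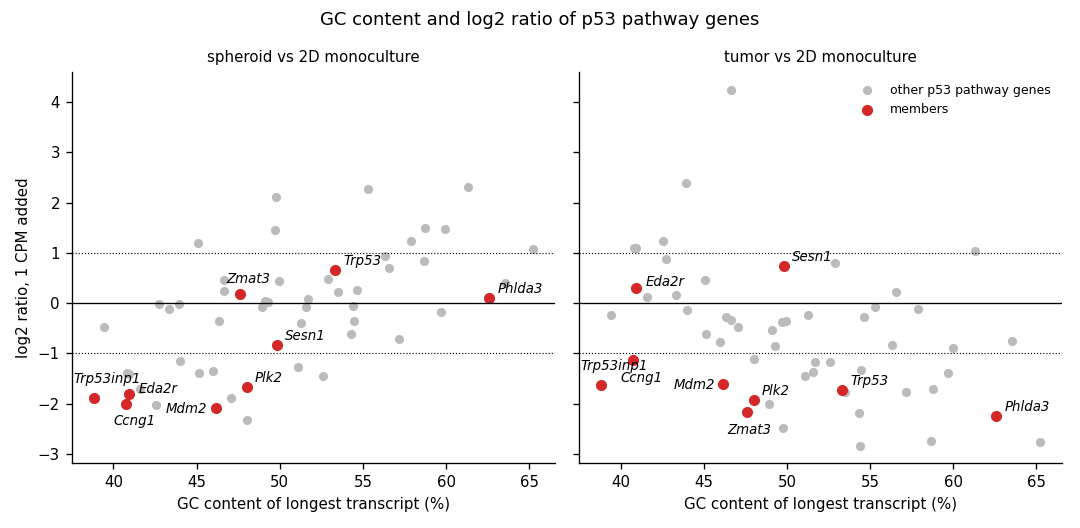
Log2 ratio (1 CPM added) to the 2D monoculture in the spheroid (left) and the tumor (right) against the GC content of the longest annotated transcript in percent. Red points are the 9 members, grey points are other p53 regulators and targets with at least 1 CPM on average, and dotted lines mark 2-fold. The 5 members past 2-fold lower in the spheroid lay between 38.8% and 48.0% GC.

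Upstream of p53, 18 of 19 listed regulators were tested. Cdkn2a, whose Arf product blocks Mdm2, was the exception: it had 0 reads in the 2D monoculture and the spheroid and 1 read in the 2D co-culture, where 3 reads, the number a count of 0 allows, would be at most 0.0262 CPM. It had 73 reads (0.45 CPM) in the tumor. Loss of Cdkn2a is known for both B16 and NIH/3T3 cells. Mdm4, the partner of Mdm2 that covers the activation domain of p53, was within 2-fold throughout, at 88.2 CPM (2D monoculture), 69.4 (2D co-culture), 81.9 (spheroid) and 98.7 (tumor).

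Regulators lower in the spheroid than in the 2D monoculture numbered 7 of 18 and those higher 0, where 17.9% of all tested genes were lower and 11.2% higher, and their median was -0.23 against 0.05 over all genes. With 1 CPM added, the lowest were Trp53bp1, Atm and Chek1, while with nothing added Atr (-1.55) stood below Chek1 (-1.51). After the GC and length correction Trp53bp1 (-0.96) and Atm (-0.84) were within 2-fold while Chek1 (-1.03) was not. Trp53bp1, a protein that gathers at DNA breaks, had 75.8 CPM (2D monoculture), 19.0 (2D co-culture), 14.3 (spheroid) and 34.6 (tumor). Atm, the kinase that answers DNA breaks and acts on p53, had 23.0, 6.93, 4.91 and 55.8 CPM in that order, and the kinase Chek1 had 23.2, 33.6, 8.15 and 50.7 CPM. In the tumor, 3 regulators were higher (Atm, Atr and Chek1) and 4 lower, among them the kinase Hipk2 at a log2 ratio of -1.87 and the acetyltransferases Ep300 at -1.47 and Crebbp at -1.28, with a median of -0.27, where 14.8% of all tested genes were higher and 18.2% lower with a median of -0.14. After the correction these 3 were within 2-fold, at -0.80, -0.71 and -0.29, and so were Atr at 0.85 and Chek1 at 0.62. The other members of the p53 family had few reads. Trp73 had at most 19 reads in any library and Trp63 had 137 reads in the tumor and at most 4 in the cultures.

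Of 29 tested targets outside the members, 9 were higher and 4 lower between spheroid and 2D monoculture, where 11.2% of all tested genes were higher and 17.9% lower. Their median was 0.02, against 0.05 over all genes, and the classes below are read against the same shares. Of the arrest genes (6 tested), 3 were higher and 0 lower. Gadd45a, a stress-induced inhibitor of cell division, was at 114 CPM (2D monoculture), 58.0 (2D co-culture), 499 (spheroid) and 19.6 (tumor). Plk3 and Btg2 were 2.89-fold and 2.79-fold higher in the spheroid than in the 2D monoculture, but Plk3 was at a log2 ratio of 0.78 after the GC and length correction. Cdkn1a, which encodes the cell cycle inhibitor p21 and is the best known p53 target, had 847 CPM (2D monoculture), 515 (2D co-culture), 813 (spheroid) and 118 (tumor). In the spheroid its log2 ratio to the 2D monoculture was -0.06 (-0.07 to -0.05). This was close to the ratios of Phlda3 and Zmat3 before the GC and length correction, which moved those of Phlda3 and Zmat3 apart.

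Among the apoptosis genes (9 tested), 1 was higher and 1 lower in the spheroid than in the 2D monoculture. Bbc3, which encodes the BCL2 antagonist Puma, had 42.8 CPM (2D monoculture), 28.9 (2D co-culture), 91.9 (spheroid) and 5.43 (tumor), and Apaf1, the core of the apoptosome, was 2.59-fold lower in the spheroid. Both were within 2-fold after the correction, at 0.35 for Bbc3 and -0.66 for Apaf1. Among the repair and metabolism genes (14 tested), 5 were higher and 3 lower. The repair genes Ercc5, Polk and Xpc were lower by 3.94-fold, 3.68-fold and 2.82-fold, while the membrane protein Cd82 was 4.94-fold higher and Fdxr, a mitochondrial reductase, 2.85-fold higher (log2 ratio 0.76 after the correction). The stress cytokine Gdf15 was at 0.618 CPM (2D monoculture) and at 7.04 CPM (spheroid). Ddit4 was at 160 CPM (2D monoculture) and 376 CPM (spheroid), and Sesn2, within 2-fold, at 103 and 186 CPM. Gadd45a, Bbc3, Gdf15, Ddit4 and Sesn2 also answer to the stress factor ATF4, as background, and the part of ATF4 in these values was not tested.

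In the tumor, 12 of the 29 other targets were lower and 3 higher than in the 2D monoculture, where 18.2% of all tested genes were lower and 14.8% higher. Their median was -0.78, against -0.14 over all genes, and -0.47 with the GC and length correction. Cdkn1a was 7.18-fold lower, Bbc3 7.88-fold, Sesn2 7.04-fold, Gadd45a 5.79-fold, Gtse1 4.68-fold, Tnfrsf10b 4.33-fold, Pidd1 3.80-fold, Ak1 2.56-fold and Xpc 2.30-fold, of which Pidd1 (-0.80), Ak1 (-0.96) and Xpc (-0.47) were within 2-fold after the correction. The higher genes were Dram1, Fas and Gdf15. Dram1, a lysosomal protein of autophagy, had 21.0 CPM in the tumor and 0.168 to 1.28 CPM in the cultures, and the death receptor Fas had 4.95 CPM against 0.132 to 0.358 CPM. Myeloid and other host genes moved in the same direction, and their part in these 3 values was not tested. In the 2D co-culture, 4 of the 29 were lower (Ercc5, Polk, Ak1 and Xpc) and 0 higher, where 9.51% of all tested genes were lower and 3.79% higher, with a median of -0.11. Fibroblast genes were higher in that library by the sums given above, and their part was not tested.

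**Figure D5:**
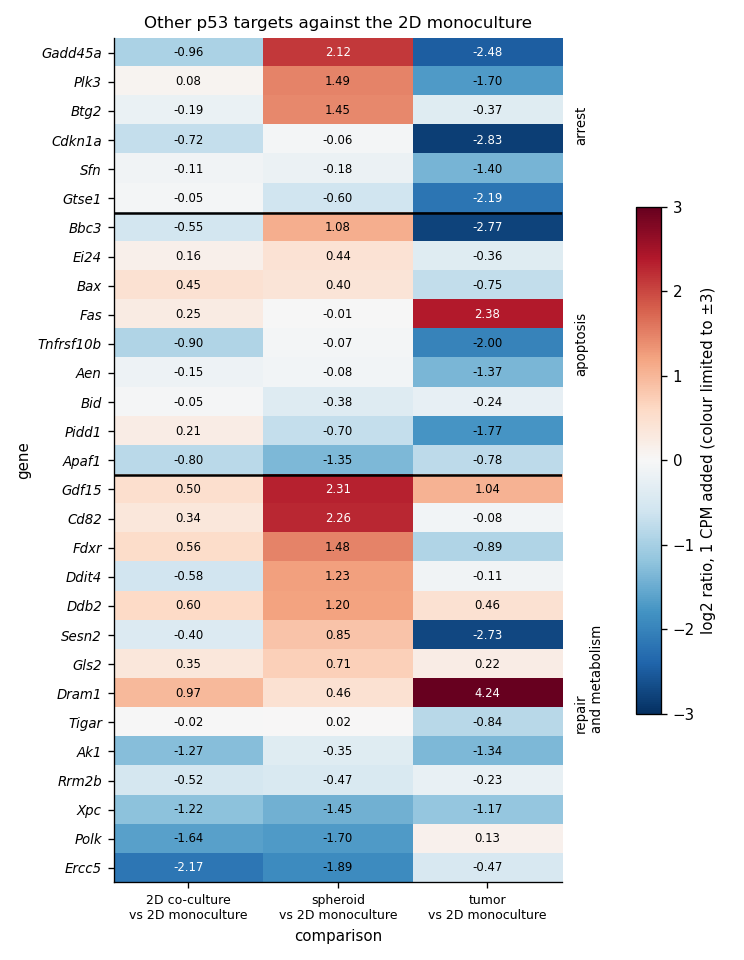
Log2 ratio (1 CPM added) to the 2D monoculture of 29 p53 targets outside the members, in the 2D co-culture, the spheroid and the tumor, by class and ordered by the spheroid within each class. Red is higher and blue lower, with the colour limited to 3 and the value printed in each cell. Gadd45a, Plk3 and Btg2 were higher in the spheroid, and Cdkn1a, Bbc3 and Sesn2 stood at -2.83, -2.77 and -2.73 in the tumor.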

How the data were processed

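The authors deposited raw read counts per refGene symbol, without normalization. The submitters' processing notes name Trimmomatic, STAR, featureCounts and mm10, with no version or setting. The labels do not say whether the library kit marks strand, and no exon of a member overlapped that of another annotated gene. Columns were assigned to conditions through their labels.

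TMM factors of all 4 libraries gave the CPM values (edgeR 4.0.16, R 4.3.3). Intervals are exact Clopper-Pearson intervals (scipy 1.17.1, Python 3.11.15). Ratios of single genes have nothing added, and calls, medians, percentiles and distances use log2(CPM + 1). A call needs 2-fold and a mean of at least 1 CPM. NOISeq and GFOLD, used by the study, were not run. Exon length and GC content came from GENCODE M21 and were known for 97.9% of tested genes. The correction removes the median of 10 classes of GC content by 10 of length. The 2-fold call and the counting interval of the ratio were tested on simulated counts that held counting error only. The scaling factors, the GC and length correction, the profile distances and the promoter search were not tested in this way.

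Named genes are all members, the up to 3 highest and 3 lowest called genes of each other list in spheroid and tumor against the 2D monoculture, Cdkn1a, Cdkn2a and Mdm4, and the 3 genes nearest in profile. Ddit4, Trp63, Trp73, Sox10, Mitf, Mlana and Tyrp1 were named after their values were seen. Members and lists were chosen with earlier results of these data known. Cop1 was read under its older symbol Rfwd2.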

Additional observations from a re-analysis of the deposited data

How the results depend on the processing

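No paired analysis was possible because only 1 library was made per condition, which also leaves no replicate to drop. Medians of the members and counts past 2-fold were recomputed with DESeq2 size factors (DESeq2 1.42.0), total counts, upper quartiles, TMM factors of the libraries compared, 0.1 CPM added, no filter, a mean of at least 10 CPM and the GC and length correction, and counts also with a 1.5-fold line or with the counting interval past 2-fold. TMM factors of the 3 cultures, and of genes expressed in the 2D monoculture, were added after seeing the data. All 54 medians stayed within 1.5-fold of the reported value, although that of spheroid to tumor, -0.26, became 0.27 with the GC and length correction. Of 66 counts, 63 stayed within 1.5 times. Between spheroid and 2D co-culture the count moved from 2 to 0 with the GC and length correction, where Mdm2 was at -0.73 and Eda2r at -0.88, and to 4 with the 1.5-fold line. Between 2D co-culture and 2D monoculture it moved from 3 to 6 with the 1.5-fold line. The lower line itself adds calls, and for the GC and length correction the cause was not tested. Of 486 recomputed log2 ratios of single members, 193 moved by more than their counting interval reached to either side. The printed intervals therefore do not cover the choice of processing. The 26 member ratios past 2-fold kept their direction in 234 of 234 recomputed values and stayed past 2-fold in 228. Ccng1 in the tumor lost 2-fold with total counts (-0.89), upper quartiles (-0.88) and factors of monoculture-expressed genes (-0.85). Total count scaling moved every log2 ratio of spheroid to tumor by -0.36. Depth did not limit the members, but 1 library per condition does.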

Other observations

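Pmaip1, which encodes the BCL2 antagonist Noxa and is a p53 target, had 0 reads in all 3 culture libraries and 501 reads (3.09 CPM) in the tumor, and with a mean under 1 CPM it entered no count. The floor of 3 reads was at most 0.0262 CPM in the cultures. Genes of host tissue were high in the tumor library, and their part in the Pmaip1 value was not tested. Pmaip1 was named after its values were seen.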
